A study of Mus musculus with 8 samples.

Results

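The genes described here, apart from the annotated pseudogenes Sprr2c-ps, Sprr2g and Sprr2j-ps, encode proteins of the cornified envelope and of late epidermal differentiation. They were the genes whose symbols begin with Lce1, Lce3, Lce6 or Sprr1 to Sprr4, together with involucrin (Ivl), loricrin (Lor), filaggrin (Flg), filaggrin-2 (Flg2), hornerin (Hrnr), repetin (Rptn), cornulin (Crnn), Tchhl1, the transglutaminases Tgm1, Tgm3 and Tgm5, caspase-14 (Casp14), periplakin (Ppl), envoplakin (Evpl) and cystatin M/E (Cst6). The annotation held 53 such genes, 46 of them on chromosome 3, and 48 of them had a probe among the 21095 genes named on the array. Flg, Lce6a, Sprr2a1, Sprr2a3 and Sprr2c-ps had no probe named through a RefSeq accession and are not analysed here. Of the 48 genes, 47 were tested, among them the transcribed pseudogenes Sprr2g and Sprr2j-ps, which are counted as Sprr2 genes. Sprr3 was not, because its probe was well above background on 1 of the 8 arrays.

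When keratinocytes reach the skin surface they replace the plasma membrane with a layer of protein that transglutaminases cross-link, and this envelope carries the lipids of the skin barrier. Involucrin, envoplakin and periplakin form the scaffold, loricrin is the main filler, and the small proline-rich proteins (Sprr) act as cross-bridges. The late cornified envelope proteins (Lce) are added last, and the S100-fused proteins (filaggrins, hornerin, repetin, cornulin) bind keratin filaments or the envelope. Most of these genes lie side by side in the epidermal differentiation complex. In human skin, LCE3 genes and several SPRR genes are known to be expressed when epidermis is wounded or inflamed, whereas LCE1 genes and loricrin belong to resting epidermis.

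RNA came from the whole skin of female mice, and each group had 2 arrays: DMBA-treated CD109-/-, DMBA-treated CD109+/+, untreated CD109-/- and untreated CD109+/+ skin. CD109 is a cell surface protein of keratinocytes that acts as a co-receptor of TGF-beta, and its gene is deleted in CD109-/- mice. DMBA (7,12-dimethylbenz[a]anthracene) is a carcinogen painted on skin, and RNA was extracted 24 h after it. The mice were of the FVB/N strain (the CD109-/- line after backcrossing), untreated samples are described as acetone-treated in one label field, and the age of the mice in the array experiment is not given in the sources used here. Nothing in the labels says whether the 2 arrays of a group came from separate animals, and the p-values then reflect just the scatter among these arrays, which may be technical. On the slide, 1 row held only DMBA-treated and the other only untreated samples, and treatment cannot be told apart from slide row. In both rows the arrays labelled CD109+/+ lay in columns 1 and 2 and those labelled CD109-/- in columns 3 and 4. The labelled genotype thus cannot be told apart from slide column.

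Values are log2 signals, that is the log2 intensity of a probe minus the log2 of its array's 75th percentile, so that a value of 0 is the 75th percentile. That percentile was an intensity between 337 and 527, between 63.6% and 67.0% of the spots on an array were well above background, and 0 spots were saturated. Cd109, the deleted gene, had log2 signals of -7.85 and -7.52 in DMBA-treated CD109-/- skin, against 1.09 and 1.67 in DMBA-treated CD109+/+ skin. In untreated skin the signal ran against the label on 1 array of each genotype. The array labelled untreated CD109-/- replicate 1 had 1.89 and the other, replicate 2, had -7.90, while the array labelled untreated CD109+/+ replicate 1 had 2.29 and the array labelled replicate 2 had -6.28. Under either untreated label replicate 1 thus had a high and replicate 2 a low Cd109 signal. Each comparison that uses untreated skin is therefore given with the labels as deposited, without these 2 arrays, and with the 2 exchanged between their groups. Without the 2 arrays 0 of the 47 genes passed in any of the 7 comparisons made. The exchange rests on the Cd109 values themselves, so its p-values are not independent evidence. The DMBA-treated arrays carry no such doubt, but the spread used to test them comes from all 8 arrays.

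Epidermis was present on all arrays. The mean log2 signal of 15 genes of suprabasal and spinous keratinocytes, such as Krt1 and Krt10, lay between 3.23 and 4.08 on the 8 arrays, and that of 11 basal keratinocyte genes between 3.81 and 4.53. In whole skin, fewer cells of a type and less RNA per cell cannot be told apart. Genes of the hair shaft and the inner root sheath, which growing follicles express, differed widely between arrays and are given beside Crnn and Tchhl1.

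Upstream sequences of 4 genes that the comparison after DMBA turns on are shown, 3 with an AP-1 motif and 1 without. RefSeq (GRCm38.p6) gave an upstream sequence for 46 of the 53 genes, and the 250 bases before the start are printed. Sprr2h lies at chr3:92385435-92385684 on the plus strand, Sprr2k at chr3:92432332-92432581 on the plus strand, Sprr1b at chr3:92438780-92439029 on the minus strand and Lce3d at chr3:92957140-92957389 on the plus strand. Capitals mark the AP-1 motif TGANTCA.
Sprr2h: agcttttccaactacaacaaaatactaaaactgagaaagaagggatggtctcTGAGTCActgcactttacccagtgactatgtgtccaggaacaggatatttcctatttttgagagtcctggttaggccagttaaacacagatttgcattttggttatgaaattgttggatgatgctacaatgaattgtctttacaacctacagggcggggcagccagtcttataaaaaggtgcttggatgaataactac
Sprr2k: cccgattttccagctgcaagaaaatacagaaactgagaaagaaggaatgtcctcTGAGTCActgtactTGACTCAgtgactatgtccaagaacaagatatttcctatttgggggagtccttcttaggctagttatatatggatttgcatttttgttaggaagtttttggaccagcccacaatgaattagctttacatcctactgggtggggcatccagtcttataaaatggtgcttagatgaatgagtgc
Sprr1b: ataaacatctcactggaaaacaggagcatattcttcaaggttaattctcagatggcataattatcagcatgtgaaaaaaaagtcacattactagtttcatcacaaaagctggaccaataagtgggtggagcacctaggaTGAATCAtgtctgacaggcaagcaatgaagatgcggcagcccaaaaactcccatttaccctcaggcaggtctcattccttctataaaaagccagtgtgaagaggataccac
Lce3d: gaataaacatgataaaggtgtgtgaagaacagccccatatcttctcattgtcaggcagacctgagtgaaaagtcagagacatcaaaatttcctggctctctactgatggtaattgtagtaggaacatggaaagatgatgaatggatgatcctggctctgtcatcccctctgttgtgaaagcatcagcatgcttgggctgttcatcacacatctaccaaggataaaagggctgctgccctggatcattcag

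AP-1 is the pair of Fos and Jun proteins that binds this motif in many keratinocyte genes. Both strands were searched. Of 10 Sprr2 upstream sequences 7 held TGANTCA (70.0%), and the same 7 genes (Sprr2b, Sprr2d, Sprr2e, Sprr2f, Sprr2h, Sprr2i and Sprr2k) held the octamer ATGCAAAT and the TATA motif TATAAA. The 3 Sprr2a copies held none of these. The octamer lay 108 to 112 bases before the start in all 7, and TATAAA 29 bases before it. Sprr2k held TGANTCA at 196 and at 182 bases, Sprr2h at 198 bases, and Sprr1b, which has no octamer match, at 111 bases. Over all the genes 16 of 47 upstream sequences held TGANTCA. These include Crnn, Flg2, Ivl, Lor, Rptn, Sprr1a, Sprr2b and Tchhl1, which had higher means in DMBA-treated CD109-/- than in DMBA-treated CD109+/+ skin. None of these changes passed as labelled. Those of Lor (0.14) and Rptn (0.06) changed sign under median centring, and that of Sprr2b rested on replicate 1. A link between the motif and the direction of change was not tested. Of the 13 Lce1 and 6 Lce3 upstream sequences 0 held TGANTCA or the octamer. Among all 32851 upstream sequences of the same length 6.75% held TGANTCA, 1.6% the octamer and 12.4% TATAAA. The ETS-type motif AGGAAG, searched as well, was in 5 of 10 Sprr2, 7 of 13 Lce1 and 29.5% of all sequences. These matches describe the letters in this window only.

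The first comparison asked how the genes differed between CD109-/- and CD109+/+ skin 24 h after DMBA. In DMBA-treated CD109-/- skin the 6 Lce3 genes, Sprr1b and 8 of 9 Sprr2 genes other than Sprr2a2 had lower means than in DMBA-treated CD109+/+ skin, by 0.85 to 3.34 on the log2 scale for all but Sprr2k, which was not well above background in DMBA-treated CD109-/- skin and was at least 8.68-fold lower there. The 14 Lce1 genes had means 0.04 to 1.03 higher. With the labels as deposited 0 of the 47 genes passed an adjusted p of 0.05 (limma with Benjamini-Hochberg adjustment over 36917 probes, of which 0.0921% passed), and 10 had an unadjusted p under 0.05, as did 26.1% of all probes. With the 2 untreated arrays exchanged, which leaves these fold changes as they are and alters only the spread, 7 genes passed, 5 lower (Sprr1b, Sprr2h, Sprr2k, Lce3c and Lce3d) and 2 higher (Crnn and Tchhl1). Of all probes 20.1% passed under this arrangement, 11.6% higher and 8.47% lower, so 7 of 47 is not above the background. Without the 2 arrays 0 passed, as did 0.0% of all probes, and 13 genes had an unadjusted p under 0.05, as did 32.7% of all probes.

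The log2 signals of the DMBA-treated arrays were apart, with no overlap between the genotypes, for 14 genes that were lower and 11 that were higher in CD109-/- skin. The same held for 32.8% of all probes on the lower and 38.5% on the higher side, so neither 14 nor 11 of 47 was above the background. The 14 were Lce3a to Lce3f, Sprr1b, Sprr2e, Sprr2f, Sprr2g, Sprr2h, Sprr2j-ps, Sprr2k and Tgm3. The 11 were Casp14, Cst6, Crnn, Flg2, Tchhl1, Sprr1a, Sprr4, Ivl, Evpl, Ppl and Tgm1. Along chromosome 3 the genes with a lower mean formed 2 runs, from Sprr2d to the neighbouring Sprr1b and from Lce3a to Lce3f, separated by Sprr1a, Sprr4, Ivl and the Lce1 genes.

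**Figure D1:**
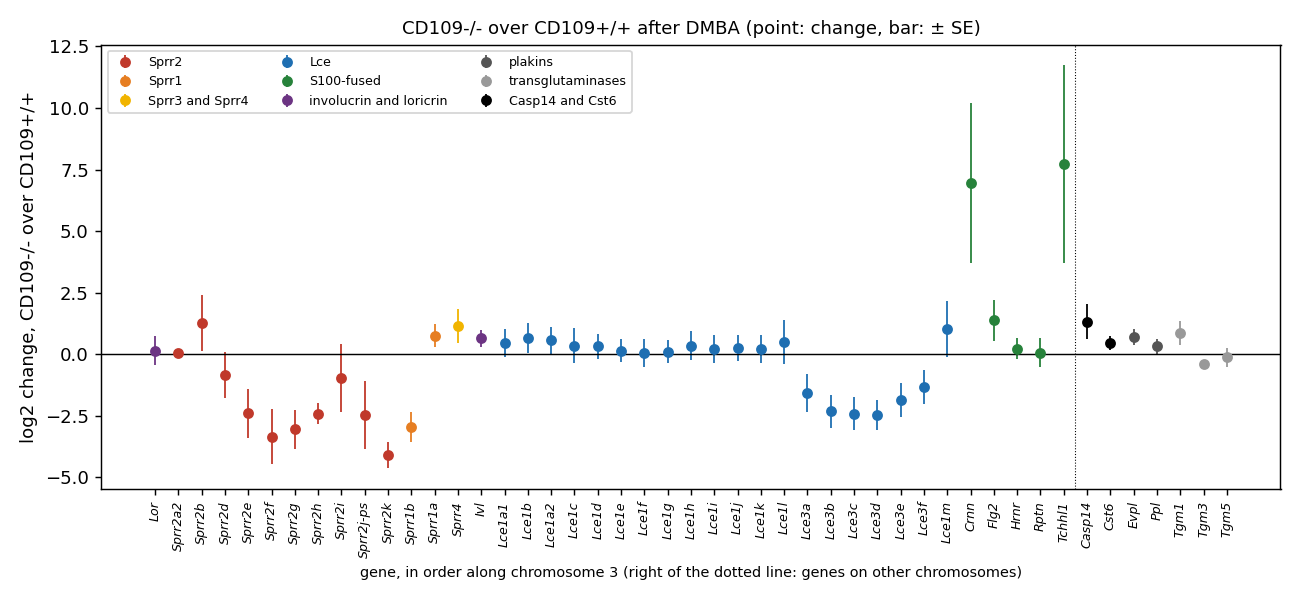
Log2 change of the 47 tested genes in DMBA-treated CD109-/- over DMBA-treated CD109+/+ skin (points, with the SE as bars), in order along chromosome 3 and, right of the dotted line, on other chromosomes. The Sprr2 genes from Sprr2d on, Sprr1b and the Lce3 genes lie below 0, while Crnn at 6.96 and Tchhl1 at 7.73 stand highest and have the widest bars.

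Sprr1b, a cross-bridging protein known from stressed epidermis, had log2 signals of 3.68 and 3.47 in DMBA-treated CD109-/- skin and 6.68 and 6.35 in DMBA-treated CD109+/+ skin. In untreated skin it had 2.53 and 2.60 where labelled CD109-/- and 4.80 and 2.83 where labelled CD109+/+. It was highest on both arrays of DMBA-treated CD109+/+ skin, and the array labelled untreated CD109+/+ replicate 1 came next. The change in CD109-/- over CD109+/+ skin after DMBA was -2.94 (SE 0.60, 7.69-fold lower), with a limma adjusted p of 0.105 as labelled, 0.0378 with the 2 arrays exchanged and 0.0641 without them. Sprr1a, which lies beyond Sprr3, ran otherwise, with 6.27 and 6.57 in DMBA-treated CD109-/- skin, against 5.69 and 5.64 in DMBA-treated CD109+/+ skin, 5.35 and 5.97 in skin labelled untreated CD109-/- and 5.39 and 6.72 in skin labelled untreated CD109+/+. Both arrays of DMBA-treated CD109-/- skin were above both of DMBA-treated CD109+/+ skin, and in untreated skin replicate 2 was above replicate 1 under either label. The change of Sprr1a after DMBA was 0.75 (SE 0.46, limma adjusted p = 0.326).

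Sprr2k was the only one of the 47 genes to pass with the labels as deposited, in DMBA-treated over untreated CD109+/+ skin. Its log2 signals were -1.97 and -2.89 in DMBA-treated CD109+/+ skin, against -7.56 and -7.64 on the arrays labelled untreated CD109+/+, where it was not well above background. For such a group the fold is a lower bound, taken from the dimmest signal that the array still measured above background. Sprr2k was at least 9.66-fold higher after DMBA in CD109+/+ skin (fitted log2 change 5.17, SE 0.53, limma adjusted p = 0.0461), a comparison in which 0.184% of all probes passed and 0.146% were higher. With the 2 arrays exchanged it was at least 9.57-fold higher (adjusted p = 0.0162). Without them its adjusted p was 0.188 and 0 genes passed, among 0.0% of all probes, with 10 genes at an unadjusted p under 0.05, against 13.1% of all probes. In DMBA-treated CD109-/- skin it had -5.78 and -7.28, also not well above background, so that it was at least 8.68-fold lower there than in DMBA-treated CD109+/+ skin (adjusted p = 0.0804 as labelled and 0.0176 with the exchange). The arrays labelled untreated CD109-/- had -7.65 and -7.68. Its signal was thus well above background on 2 arrays only, both of DMBA-treated CD109+/+ skin. The probe entered the test only through that group, in which it was high, so its p-values are not independent support for a change. Without a filter on dim probes 0 genes passed in DMBA-treated over untreated CD109+/+ skin, beside 0.00902% of all probes.

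Sprr2h had 2.22 and 1.97 in DMBA-treated CD109-/- skin, against 4.57 and 4.44 in DMBA-treated CD109+/+ skin. It had 1.04 and 1.11 in skin labelled untreated CD109-/- and 2.91 and 1.57 in skin labelled untreated CD109+/+. The replicates lay close together after DMBA and the genotypes did not overlap (change -2.41, SE 0.42, limma adjusted p = 0.0938, with the exchange 0.0402). Sprr2b ran the other way. Its signals were -1.93 and -4.46 in DMBA-treated CD109-/- skin, against -4.51 and -4.45 in DMBA-treated CD109+/+ skin, -8.02 and -8.06 in skin labelled untreated CD109-/- and -7.95 and -5.03 in skin labelled untreated CD109+/+. It was higher on all 4 DMBA-treated arrays than on all 4 untreated ones, and was well above background on 5 of the 8 arrays. In untreated skin 1 of the 4 arrays measured it, so its averaged DMBA change is given without a size (limma adjusted p = 0.257).

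The other Sprr2 genes split the 2 arrays of DMBA-treated CD109-/- skin. Sprr2f had 0.67 on replicate 1 and -2.34 on replicate 2, against 2.43 and 2.59 in DMBA-treated CD109+/+ skin. Sprr2d had 5.49 and 3.08 in DMBA-treated CD109-/- skin, against 5.19 and 5.07 in DMBA-treated CD109+/+ skin, and its genotypes overlapped. The median of the 9 Sprr2 genes other than Sprr2a2 was 1.37 and -1.63 in DMBA-treated CD109-/- skin, against 2.43 and 2.59 in DMBA-treated CD109+/+ skin. It was -2.44 and -0.03 in skin labelled untreated CD109-/- and -0.10 and 0.61 in skin labelled untreated CD109+/+. The genes of this family are close copies, and the probe sequences were not used here, so one probe may read several of them.

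Sprr2a2 had 3 probes, and they did not all behave alike. Its brightest probe had between 7.93 and 8.13 on all 8 arrays, among the 205 brightest of 55458 probes on every array and without a saturation mark, and its change after DMBA was 0.07 (SE 0.15, adjusted p = 0.775). A second Sprr2a2 probe had 4.26 and 2.93 in DMBA-treated CD109-/- skin, 5.21 and 6.03 in DMBA-treated CD109+/+ skin, -0.10 and 0.97 in skin labelled untreated CD109-/- and 2.10 and 1.88 in skin labelled untreated CD109+/+. This probe was higher on all 4 DMBA-treated arrays (averaged change 3.39, SE 0.41, limma adjusted p = 0.0985) and lower in DMBA-treated CD109-/- skin (change -2.03, SE 0.57, adjusted p = 0.121). The third probe, well above background on 3 arrays only, had the same directions as the second in both comparisons. The brightest probe thus disagrees with the others, for a reason that was not tested, and the level of Sprr2a2 is uncertain.

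Sprr4, the other tested Sprr gene, had 5.10 and 3.35 in DMBA-treated CD109-/- skin, against 2.95 and 3.20 in DMBA-treated CD109+/+ skin. The arrays labelled untreated had 2.86 and 2.83 for CD109-/- and 2.47 and 3.92 for CD109+/+. Replicate 1 of DMBA-treated CD109-/- skin was far above the rest, and the change of 1.15 (SE 0.68, limma adjusted p = 0.314) did not pass.

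**Figure D2:**
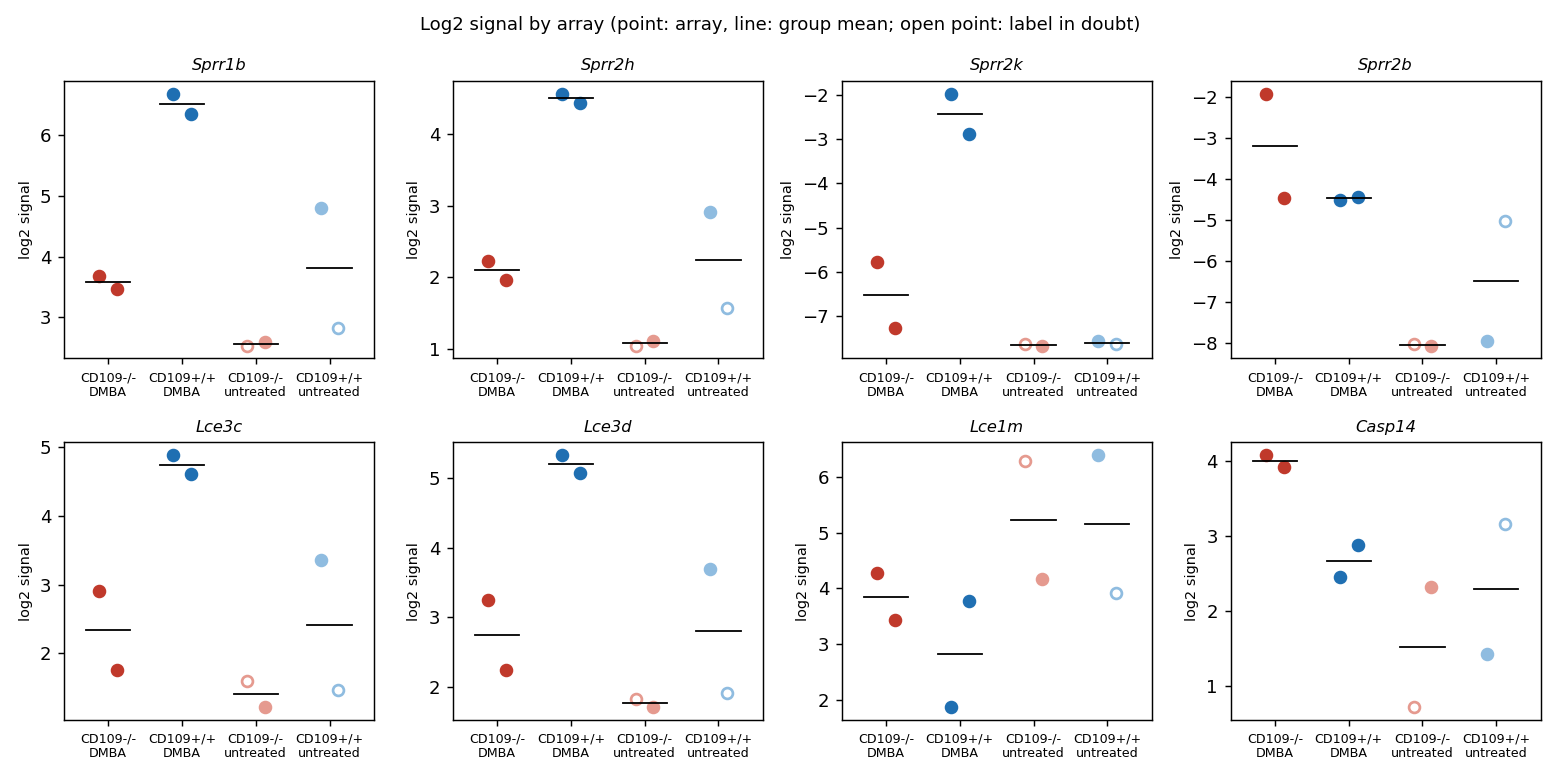
Log2 signal of 8 genes on each array (points) with the group mean (lines), for DMBA-treated CD109-/-, DMBA-treated CD109+/+, untreated CD109-/- and untreated CD109+/+ skin, with the arrays whose label is in doubt as open points. Sprr1b, Sprr2h, Sprr2k, Lce3c and Lce3d are highest on both arrays of DMBA-treated CD109+/+ skin, Casp14 on both arrays of DMBA-treated CD109-/- skin.

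Of the Lce3 genes, Lce3d had 3.24 and 2.23 in DMBA-treated CD109-/- skin, against 5.33 and 5.08 in DMBA-treated CD109+/+ skin. It had 1.83 and 1.71 in skin labelled untreated CD109-/- and 3.69 and 1.91 in skin labelled untreated CD109+/+. Its change after DMBA was -2.46 (SE 0.62, 5.52-fold lower), the lowest of the Lce genes, with a limma adjusted p of 0.111 as labelled and 0.0463 with the exchange. Lce3c had 2.91 and 1.76 in DMBA-treated CD109-/- skin, against 4.89 and 4.61 in DMBA-treated CD109+/+ skin, 1.59 and 1.22 in skin labelled untreated CD109-/- and 3.36 and 1.47 in skin labelled untreated CD109+/+. Its change was -2.41 (SE 0.68, adjusted p = 0.12, with the exchange 0.0482). The array labelled untreated CD109+/+ replicate 1 stood above the other 3 untreated arrays for both genes.

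Lce3a had 1.71 and -0.20 in DMBA-treated CD109-/- skin, against 2.66 and 2.01 in DMBA-treated CD109+/+ skin, -2.26 and -0.68 in skin labelled untreated CD109-/- and 0.07 and -0.37 in skin labelled untreated CD109+/+. Its averaged DMBA change of 2.36 (SE 0.55, limma adjusted p = 0.253) was the highest of the Lce genes. Over the 6 Lce3 genes the median change after DMBA in CD109-/- over CD109+/+ skin was -2.09, against 0.07 over all probes tested. Lce3b, Lce3e and Lce3f were lower in DMBA-treated CD109-/- skin on all pairs of arrays too, and none of the 6 passed with the labels as deposited.

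The 14 Lce1 genes, which belong to resting epidermis, had small mean differences between the genotypes after DMBA, beside wide differences between replicates. Their medians were 5.52 and 4.38 in DMBA-treated CD109-/- skin, 4.08 and 5.03 in DMBA-treated CD109+/+ skin, 4.79 and 3.95 in skin labelled untreated CD109-/- and 5.32 and 4.33 in skin labelled untreated CD109+/+. The median change after DMBA was 0.33, and 0 of 14 passed with the labels as deposited or exchanged, with a smallest limma adjusted p of 0.497 and 0.252. In untreated skin 13 of the 14 had lower means in CD109-/- skin as labelled (median change -0.43). With the exchange all 14 did (median change -0.85), and 0 passed in either arrangement. Lce1m, which lies apart from the other Lce1 genes between Lce3f and Crnn, had the highest change after DMBA of the Lce genes, 1.03 (SE 1.14). It had 4.27 and 3.43 in DMBA-treated CD109-/- skin, against 1.86 and 3.77 in DMBA-treated CD109+/+ skin. The arrays labelled untreated had 6.28 and 4.16 for CD109-/- and 6.39 and 3.92 for CD109+/+, so that replicate 1 of both untreated labels was the highest of all 8 arrays. Lce1m fell after DMBA in CD109+/+ skin with the exchange (change -3.52, SE 0.62, adjusted p = 0.0458), where 3.51% of all probes passed, and did not pass with the labels as deposited (change -2.34, SE 1.14, adjusted p = 0.513).

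Loricrin, the main protein of the envelope, had 8.23 and 7.37 in DMBA-treated CD109-/- skin, against 7.19 and 8.11 in DMBA-treated CD109+/+ skin, 8.39 and 7.35 in skin labelled untreated CD109-/- and 8.60 and 7.54 in skin labelled untreated CD109+/+. Its change after DMBA was 0.14 (SE 0.59, limma adjusted p = 0.885). Involucrin, the early scaffold protein, had 2.08 and 2.25 in DMBA-treated CD109-/- skin, against 1.00 and 2.03 in DMBA-treated CD109+/+ skin, 1.02 and 0.76 in skin labelled untreated CD109-/- and 0.96 and 1.24 in skin labelled untreated CD109+/+. Its change was 0.64 (SE 0.35, adjusted p = 0.287), and both arrays of DMBA-treated CD109-/- skin were above both of DMBA-treated CD109+/+ skin by a narrow margin.

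Evpl and Ppl, the plakins that seat the envelope on the membrane, had changes of 0.70 (SE 0.32, limma adjusted p = 0.229) and 0.33 (SE 0.30, adjusted p = 0.49) in CD109-/- over CD109+/+ skin after DMBA. Evpl had 5.39 and 6.05 in DMBA-treated CD109-/- skin, against 4.83 and 5.21 in DMBA-treated CD109+/+ skin, 5.10 and 5.54 in skin labelled untreated CD109-/- and 5.32 and 5.79 in skin labelled untreated CD109+/+. Ppl had 3.24 and 3.37 in DMBA-treated CD109-/- skin, against 2.72 and 3.23 in DMBA-treated CD109+/+ skin, 3.73 and 3.15 in skin labelled untreated CD109-/- and 3.89 and 3.43 in skin labelled untreated CD109+/+. Neither gene passed in any comparison.

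Of the cross-linking enzymes, Tgm1, the main cross-linking enzyme of the epidermis, had 1.78 and 2.54 in DMBA-treated CD109-/- skin, against 1.14 and 1.47 in DMBA-treated CD109+/+ skin. It had 0.82 and 1.86 in skin labelled untreated CD109-/- and 1.20 and 2.10 in skin labelled untreated CD109+/+. Both arrays of DMBA-treated CD109-/- skin were above both of DMBA-treated CD109+/+ skin, and replicate 2 was again the higher under either untreated label. The change of Tgm1 after DMBA was 0.85 (SE 0.49, limma adjusted p = 0.302). Tgm5 had 1.99 and 0.86 in DMBA-treated CD109-/- skin, against 1.38 and 1.71 in DMBA-treated CD109+/+ skin, 1.03 and 0.91 in skin labelled untreated CD109-/- and 1.54 and 1.16 in skin labelled untreated CD109+/+, with overlap between the genotypes and a change of -0.12 (SE 0.39, adjusted p = 0.857).

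Tgm3, an enzyme of the hair follicle as well as the epidermis, had 0.26 and 0.31 in DMBA-treated CD109-/- skin, against 0.67 and 0.71 in DMBA-treated CD109+/+ skin, 0.64 and 0.67 in skin labelled untreated CD109-/- and 0.61 and 0.90 in skin labelled untreated CD109+/+. The change was -0.41 (SE 0.16, limma adjusted p = 0.188). Its second, dimmer probe had -2.04 and 0.18 in DMBA-treated CD109-/- skin, -0.90 and -0.87 in DMBA-treated CD109+/+ skin, -4.78 and -1.87 in skin labelled untreated CD109-/- and -3.94 and -0.95 in skin labelled untreated CD109+/+. The 2 probes differ in direction for the averaged DMBA change (-0.22 and 1.98), so a direction for Tgm3 depends on the probe.

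Casp14, the protease that helps to break filaggrin down to amino acids, was highest in DMBA-treated CD109-/- skin, with 4.07 and 3.92, against 2.45 and 2.88 in DMBA-treated CD109+/+ skin. It had 0.72 and 2.32 in skin labelled untreated CD109-/- and 1.43 and 3.16 in skin labelled untreated CD109+/+. The change after DMBA was 1.33 (SE 0.72, 2.52-fold higher, limma adjusted p = 0.278, with the exchange 0.0515). Averaged over treatments it was 1.5 higher in CD109-/- skin with the exchange (SE 0.26, adjusted p = 0.0146). Cst6, an inhibitor of the cathepsins that act on the envelope, had 8.65 and 8.05 in DMBA-treated CD109-/- skin, against 7.78 and 8.01 in DMBA-treated CD109+/+ skin, 8.0 and 7.36 in skin labelled untreated CD109-/- and 7.90 and 7.89 in skin labelled untreated CD109+/+. Its change of 0.46 (SE 0.30, adjusted p = 0.353) did not pass.

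Among the S100-fused genes, Crnn and Tchhl1 had the highest changes of all 47. Crnn, a protein of squamous epithelia, had 0.50 and 3.19 in DMBA-treated CD109-/- skin, against -4.87 and -5.36 in DMBA-treated CD109+/+ skin. It had -4.99 and 2.11 in skin labelled untreated CD109-/- and -4.93 and 3.18 in skin labelled untreated CD109+/+. Both arrays of DMBA-treated CD109-/- skin and replicate 2 of both untreated labels were high, and the other 4 arrays were low. The high arrays were the 4 with a low Cd109 signal, and the low arrays the 4 with a high one. The change of Crnn after DMBA was 6.96 (SE 3.25, limma adjusted p = 0.233), and with the exchange the same change had an SE of 0.86 and an adjusted p of 0.0168. Tchhl1, an S100-fused relative of trichohyalin, had 1.24 and 6.52 in DMBA-treated CD109-/- skin, against -3.96 and -3.74 in DMBA-treated CD109+/+ skin, -2.50 and 3.59 in skin labelled untreated CD109-/- and -5.19 and 5.97 in skin labelled untreated CD109+/+. Its change was 7.73 (SE 4.02, adjusted p = 0.268, with the exchange 0.0407).

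Hair follicle genes divided the arrays in the same way. Averaged per array, 13 hair shaft keratins had a log2 signal of 0.74 and 5.46 in DMBA-treated CD109-/- skin, against -4.57 and -4.58 in DMBA-treated CD109+/+ skin. It was -4.44 and 2.72 in skin labelled untreated CD109-/- and -4.23 and 4.26 in skin labelled untreated CD109+/+. The mean of 9 inner root sheath genes was 3.25 and 5.48 in DMBA-treated CD109-/- skin, against -3.73 and -3.93 in DMBA-treated CD109+/+ skin, -3.28 and 4.82 in skin labelled untreated CD109-/- and -3.12 and 5.33 in skin labelled untreated CD109+/+. All 13 and all 9 had a positive change after DMBA in CD109-/- over CD109+/+ skin, and with the exchange, where 1 more hair shaft keratin could be tested, 10 of 14 and 7 of 9 passed, beside 11.6% of all probes that were higher. Krt71 of the inner root sheath had a change of 12.75 (SE 5.29, limma adjusted p = 0.197, with the exchange 0.00169) and Krt35 of the hair shaft one of 11.02 (SE 4.20, adjusted p = 0.176, with the exchange 0.00471). Padi3, the deiminase of the filaggrin processing list that also acts in the inner root sheath, had 2.65 and 5.24 in DMBA-treated CD109-/- skin, against -3.22 and -3.93 in DMBA-treated CD109+/+ skin. The split was not confined to hair follicle genes. Sprr1a, Evpl and Tgm1 were also higher on every array where Crnn was high than on any where it was low. So were the means of late differentiation transcription factors and of filaggrin processing genes. Means of basal keratinocyte, macrophage, skeletal muscle and adipocyte genes were lower there, without overlap. Those of suprabasal, activated epidermis, neutrophil, T cell and fibroblast genes overlapped. The part of hair follicle RNA in the values of Crnn and Tchhl1 was not tested.

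**Figure D3:**
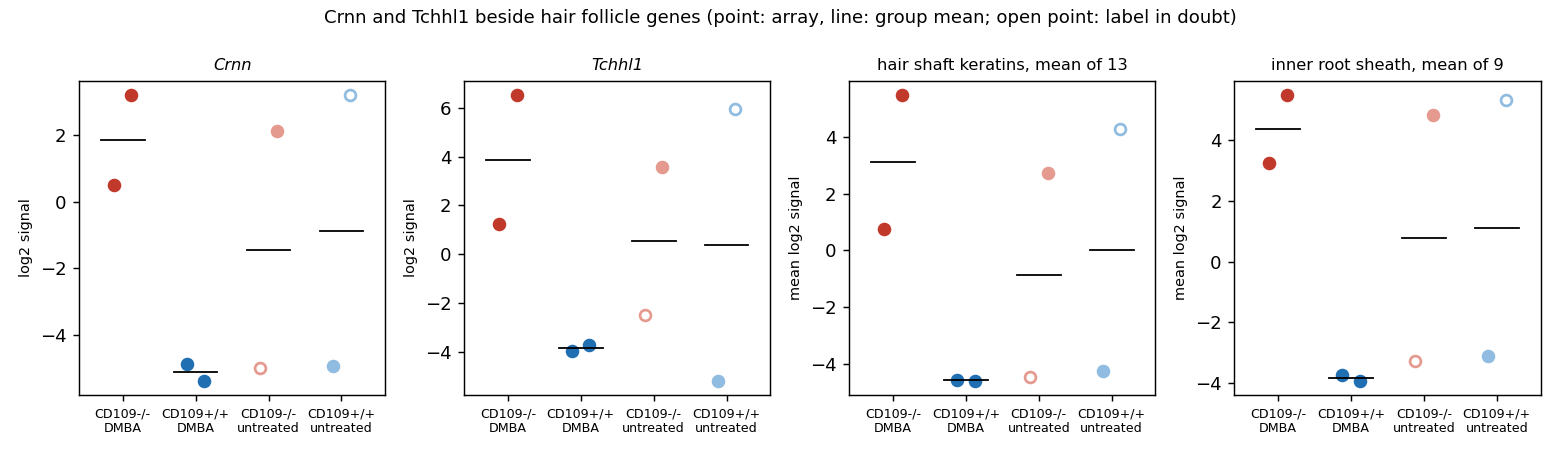
Log2 signal of Crnn and Tchhl1 and the averages of 13 hair shaft keratins and of 9 inner root sheath genes on each array (points, with the group mean as lines), the arrays whose label is in doubt as open points. All 4 panels split the 8 arrays into the same upper and lower 4, with both DMBA-treated CD109-/- arrays in the upper part and both DMBA-treated CD109+/+ arrays in the lower.

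The other S100-fused genes did not follow this split. Flg2 had 3.19 and 2.71 in DMBA-treated CD109-/- skin, against 0.69 and 2.46 in DMBA-treated CD109+/+ skin, 3.86 and 2.71 in skin labelled untreated CD109-/- and 4.19 and 2.46 in skin labelled untreated CD109+/+ (change after DMBA 1.37, SE 0.82, limma adjusted p = 0.317). Replicate 1 of both untreated labels was highest, as for Lce1m. Rptn had 1.97 and 0.12 in DMBA-treated CD109-/- skin, against 0.97 and 0.99 in DMBA-treated CD109+/+ skin, -0.96 and -0.59 in skin labelled untreated CD109-/- and -0.60 and -0.17 in skin labelled untreated CD109+/+. It did not separate the genotypes after DMBA (change 0.06, SE 0.58, adjusted p = 0.952). Hrnr had a change of 0.23 (SE 0.42, adjusted p = 0.739).

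**Figure D4:**
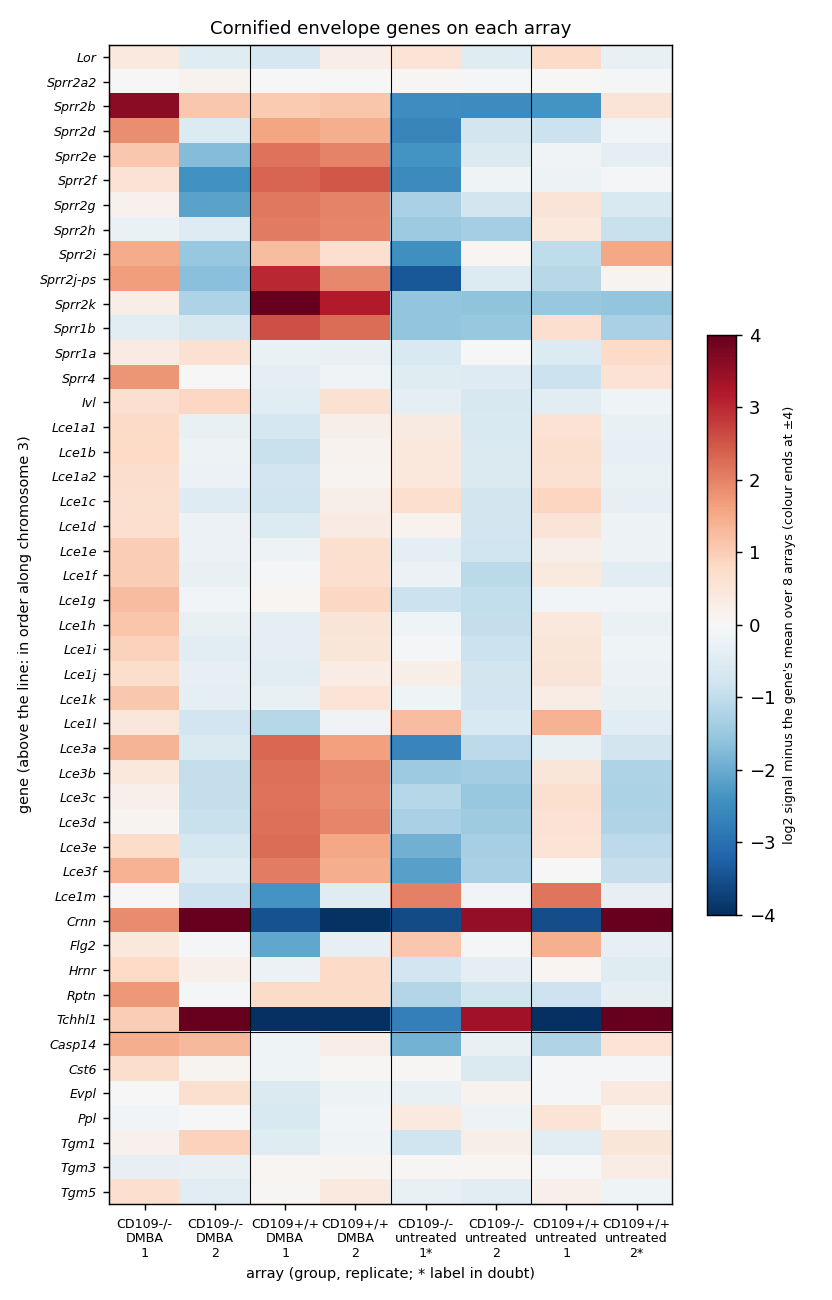
Log2 signal of the 47 tested genes on each array minus the gene's mean over the 8 arrays (colour, which ends at 4 on either side), with genes in order along chromosome 3 above the line and those on other chromosomes below it. Sprr2 genes, Sprr1b and the Lce3 genes are mostly red in DMBA-treated CD109+/+ skin, the Lce1 genes other than Lce1m are mostly pale, and Crnn and Tchhl1 are red in DMBA-treated CD109-/- skin and on replicate 2 of both untreated labels.

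The second question was what DMBA did to these genes. Averaged over the genotypes, 34 of the 47 genes had a positive change and 13 a negative one, with a median of 0.58, against 0.04 over all probes tested. This estimate is the same with the 2 untreated arrays exchanged. All 6 Lce3 genes (median 1.84) and all 10 Sprr2 genes (median 1.69) had a positive change, but with the labels as deposited 0 of the 47 genes passed, among 0.0298% of all probes, and 18 had an unadjusted p under 0.05, against 11.5% of all probes. With the exchange 1 passed, Sprr2k (change 3.15, at least 2.36-fold higher, SE 0.37, limma adjusted p = 0.0322), where 1.5% of all probes passed and 1.06% were higher. Rptn, Sprr2b and Sprr2k were higher on all 4 DMBA-treated than on all 4 untreated arrays, and 3.82% of all probes were. Sprr2k was not well above background on the DMBA-treated CD109-/- arrays or on any untreated array, so a rise in CD109-/- skin is not shown. Sprr2b was well above background on 1 of the 4 untreated arrays. The averaged change was 1.86 for Sprr1b (SE 0.43, adjusted p = 0.252), 1.64 for Sprr2h (SE 0.30, adjusted p = 0.19), 1.59 for Rptn (SE 0.41, adjusted p = 0.277) and 1.42 for Casp14 (SE 0.51, adjusted p = 0.382). At the other end were Lce1m at -1.86 (SE 0.81, adjusted p = 0.462) and Flg2 at -1.04 (SE 0.58, adjusted p = 0.559).

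In CD109+/+ skin alone, 1 of the 47 genes passed as labelled (Sprr2k), 10 had an unadjusted p under 0.05, against 11.5% of all probes, and 2 passed with the exchange (Sprr2k higher, Lce1m lower), where 2.37% of all probes rose and 1.14% fell. In CD109-/- skin alone 0 passed in either arrangement, where 0.0% of all probes passed with the labels as deposited and 0.0135% with the exchange, and 9 and 6 genes had an unadjusted p under 0.05, against 14.3% and 17.5% of all probes. The Lce3 genes had a median DMBA change of 1.40 in CD109-/- skin and 2.37 in CD109+/+ skin with the labels as deposited, and 1.13 and 2.55 with the exchange. For Sprr2 genes other than Sprr2a2 it was 1.14 in CD109-/- skin and 2.26 in CD109+/+ skin with the labels as deposited, and 0.23 and 3.34 with the exchange. The difference between these DMBA effects was tested itself, and 0 of the 47 genes passed in either arrangement (0.0% and 0.0269% of all probes), with the smallest limma adjusted p at 0.262 and 0.0966, both for Sprr2k. Its signal was well above background in 1 of the 4 groups, so no size is given for that difference. At an unadjusted p under 0.05 there were 1 and 10 genes, against 15.4% and 21.1% of all probes. A miss of the threshold with 2 arrays a group does not show that the genotypes respond alike.

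Between untreated CD109-/- and CD109+/+ skin 0 of the 47 genes passed with the labels as deposited, and 1 had an unadjusted p under 0.05, where 0.00542% and 2.15% of all probes did. With the exchange Casp14 (change 1.67, SE 0.36, limma adjusted p = 0.0469), Crnn (7.61, SE 0.86, adjusted p = 0.0104) and Tchhl1 (8.62, SE 1.87, adjusted p = 0.0469) were higher in CD109-/- skin, where 8.89% of all probes passed and 4.95% were higher. Averaged over treatments, 0 passed with the labels as deposited (0.00271% of all probes) and 10 with the exchange (30.8% of all probes, 15.0% higher and 15.8% lower), with 12 genes at an unadjusted p under 0.05 as labelled, against 12.3% of all probes. Of the 10, Casp14, Crnn, Tchhl1, Sprr1a (0.86, SE 0.18, adjusted p = 0.0224) and Tgm1 (0.91, SE 0.21, adjusted p = 0.0262) were higher in CD109-/- skin, and Lce3c, Lce3d, Sprr1b, Sprr2h and Sprr2k were lower.

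Lists of related genes were set beside the 47. Over 8 keratin and alarmin genes of activated epidermis the mean was 4.81 and 3.69 in DMBA-treated CD109-/- skin, against 5.68 and 5.40 in DMBA-treated CD109+/+ skin. It was 1.45 and 3.40 in skin labelled untreated CD109-/- and 2.34 and 3.72 in skin labelled untreated CD109+/+. Among the untreated arrays replicate 2 was thus the higher under either label, whereas Sprr1b, Lce3c and Lce3d were highest on CD109+/+ replicate 1. Krt16 had 5.22 and 4.84 in DMBA-treated CD109-/- skin, against 8.42 and 8.29 in DMBA-treated CD109+/+ skin, 3.50 and 4.39 in skin labelled untreated CD109-/- and 5.19 and 4.63 in skin labelled untreated CD109+/+. It rose after DMBA in CD109+/+ skin (change 3.45, SE 0.36, limma adjusted p = 0.0461), and was the only 1 of 8 genes of its list to pass there as labelled, where 0.184% of all probes did. Krt6a had a change of 3.51 in the same comparison (SE 0.46, adjusted p = 0.0808). Of 8 neutrophil genes 2 passed in that comparison, Mmp8 (4.30, SE 0.35, adjusted p = 0.0285), measured above background on 1 of the 2 untreated arrays, and Cxcr2 (3.80, SE 0.40, adjusted p = 0.0493). The mean of the 8 neutrophil genes was 0.81 and -0.16 in DMBA-treated CD109-/- skin, against 2.21 and 1.60 in DMBA-treated CD109+/+ skin, -1.22 and -0.39 in skin labelled untreated CD109-/- and -1.33 and -0.20 in skin labelled untreated CD109+/+. The neutrophil list shares S100a8 and S100a9 with the list of activated epidermis, so these lists are not separate measures. Whether neutrophils play a part in the Sprr and Lce3 values was not tested.

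In CD109-/- over CD109+/+ skin after DMBA, 0 genes of the 14 lists passed with the labels as deposited. With the exchange, 7 of 14 transcription factors of late differentiation were higher, among them Hopx (change 1.30, SE 0.17, limma adjusted p = 0.0183) and Tfap2a (1.71, SE 0.26, adjusted p = 0.0218), and 1 was lower. Of 15 suprabasal genes 2 were higher, Calml3 (1.24, SE 0.25, adjusted p = 0.0314) and Krt2 (0.73, SE 0.17, adjusted p = 0.0398). Of 11 basal genes 6 were lower, such as Lamb3 (-1.23, SE 0.17, adjusted p = 0.0193) and Krt14 (-1.42, SE 0.23, adjusted p = 0.024). Of 13 filaggrin processing genes Padi3 (7.52, SE 0.82, adjusted p = 0.0136) and St14 (1.53, SE 0.33, adjusted p = 0.0334) were higher. Macrophage genes were lower in 5 of 9, adipocyte genes in 4 of 5, skeletal muscle genes in 2 of 7 and neutrophil genes in 3 of 8, while 0 of 6 T cell and 0 of 6 fibroblast genes passed. These shares stand beside the 11.6% of all probes that were higher and the 8.47% that were lower under that arrangement.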

How the data were processed

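Skin RNA of 4 groups with 2 arrays each was hybridized to 1-colour Agilent mouse arrays on 1 slide, scanned on 1 day. Images were quantified by the authors in Feature Extraction 11.5.1.1 (Agilent), who deposited, per spot, a processed intensity that is background-subtracted and detrended but not normalized between arrays. In the deposited value table these intensities are multiplied by 1 constant per array. Spot and background intensities were deposited as medians. No value columns of other samples were found (0).

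Control spots and spots marked as outliers were left out and spots of a probe averaged, which gave 55681 probes. Of these 223 had all spots marked on an array and 55458 were kept. Log2 intensities were centred on each array's 75th percentile. Of 29684 probes with a RefSeq accession 27922 were named through the GRCm38.p6 annotation (the array design names mm9). A gene was represented by its brightest probe, and 6 of the 48 genes had several. Probes well above background on both arrays of a group were fitted with limma 3.58.1 in R 4.3.3, with 1 mean per group over all 8 arrays, and p-values were Benjamini-Hochberg adjusted over all 36917 probes (37144 with the exchange). A probe passed under 0.05. There were 7 comparisons. The model was tested on simulated data.

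Values are given in full for Cd109, for each gene that passed in any comparison as labelled or exchanged, and for the genes with the highest and lowest change of their role, 24 in all, with further Sprr2 genes chosen after their values were seen. From each of 14 lists up to 2 genes with the smallest p are named, and the result of the barrier lipid list is not reported here. The genes and the lists were chosen with earlier results of these data known. The methods' t-test was run on the same values as an alternative. Precision is limited by the number of arrays.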

Additional observations from a re-analysis of the deposited data

How the results depend on the processing

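As labelled, 0 genes passed in CD109-/- over CD109+/+ skin after DMBA, and this count became 7 with the exchange, 2 with the replicate number as a block (Sprr2h and Sprr2k, lower) and 8 by the methods' t-test without adjustment. The last pair stand beside 4.38% and 18.9% of all probes, against 4.26% and 17.0% of the 47 genes. In untreated skin 0 became 3 with the exchange and 1 by the unadjusted t-test. All probes passed in 8.89% and 2.23% there, against 6.38% and 2.13% of the 47 genes. For DMBA in CD109+/+ skin 1 became 2 with the exchange and 6 by the unadjusted t-test. These are 4.26% and 12.8% of the 47 genes, beside 3.51% and 11.2% of all probes. The count became 0 without the 2 arrays in doubt, with the replicate block, with only the arrays compared, with quantile normalization and with normexp. It also became 0 without a filter, with a filter on all arrays (fewer genes tested, 43) and by the adjusted t-test. The Sprr2k call as labelled thus held under few settings. The unadjusted t-test gave 4 for DMBA in CD109-/- skin, 1 for the difference, 8 for the genotypes averaged and 13 for DMBA averaged. These are 8.51%, 2.13%, 17.0% and 27.7% of the 47 genes, beside 5.63%, 12.6%, 11.8% and 12% of all probes. The exchange gave 10 and 1 for the averages, or 21.3% and 2.13% of the 47 genes, beside 30.8% and 1.5% of all probes. The cause of these moves in the counts was not tested.

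With the exchange, normexp gave 14 in place of 7 after DMBA, 6 in place of 3 in untreated skin, 9 in place of 2 for DMBA in CD109+/+ skin, 2 in place of 0 in CD109-/- skin and 4 in place of 1 for DMBA averaged. All probes passed in 40.0%, 13.6%, 6.6%, 10.3% and 5.3% under these, against 29.8%, 12.8%, 19.1%, 4.26% and 8.51% of the 47 genes. The replicate block gave 4, 0 and 1 in the first 3 of these and 2 in place of 10 for the genotypes averaged. These are 8.51%, 0.0%, 2.13% and 4.26% of the 47 genes, beside 20.2%, 0.0485%, 0.603% and 5.07% of all probes. Median centring gave 1 in place of 2 for DMBA in CD109+/+ skin, or 2.13% of the 47 genes beside 3.27% of all probes. These combinations were chosen after seeing the data. Same-numbered arrays deviated together with correlations from -0.082 to 0.731, and were over 0.1 for 4 of the 6 pairs of groups. Not every pair of groups was over 0.1 and no label ties the numbers together, so the arrays were taken to share only a number.

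Leaving out each array in turn gave 0 in all comparisons as labelled, among them 0 in place of 1 for DMBA in CD109+/+ skin. With the exchange it gave 0 to 12 after DMBA, 0 to 5 untreated, 0 to 3 for DMBA in CD109+/+ skin, 0 in CD109-/- skin, 0 for the difference, 1 to 13 for the genotypes averaged and 0 to 2 for DMBA averaged. The calls over all 37144 probes moved widely too. After DMBA 49 were higher and 28 lower without DMBA-treated CD109+/+ replicate 1. Without DMBA-treated CD109-/- replicate 1 they were 7212 and 6218. For the 24 genes, 978 values under an alternative were compared, all for the genotypes after DMBA or for DMBA averaged. In both comparisons 0 genes had passed as labelled. Of these values 27 changed sign, none of them of Sprr2k, whose pass as labelled was in another comparison. Median centring, which shifts all genotype changes after DMBA by -0.33, gave -0.18 for Lor, -0.27 for Rptn and -0.26 for Sprr2a2. The mean of a gene's probes gave -1.35 for Sprr2a2 after DMBA and 0.88 for Tgm3 averaged over genotypes, quantile normalization gave -0.0895 for Sprr2a2, and Tchhl1 was 0.81 without the 2 arrays. Leaving out single arrays gave ranges across 0 after DMBA for Lor (-0.32 to 0.60), Rptn (-0.86 to 0.98), Sprr2a2 (-0.003 to 0.14) and Tgm5 (-0.68 to 0.44), and for DMBA averaged for Crnn (-2.51 to 1.55), Evpl (-0.23 to 0.10), Lor (-0.51 to 0.0152), Sprr1a (-0.15 to 0.52), Tchhl1 (-3.25 to 2.33) and Tgm1 (-0.0203 to 0.50). It moved 11 further changes after DMBA and 7 for DMBA averaged by over 1.5 times without a change of sign. Examples after DMBA are Flg2 (0.49 to 2.26), Sprr4 (0.28 to 2.03), Ivl (0.13 to 1.16) and Lce1m (0.08 to 1.99).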
